A study of Mus musculus with 2 samples.

Results

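The peaks described here are those that the authors assigned to 8 genes of neurotrophic signalling, the ligand genes Bdnf and Ntf3 and the receptor genes Ntrk2, Ntrk3, Ngfr, Gfra1, Gfra2 and Ret. A peak was taken when the gene symbol in the authors' annotation table was 1 of the 8, which gave 133 of 99782 annotated peaks. The genes themselves are 8 of 21938 protein-coding genes. They were chosen by values of this same peak list, the number and the maximum signal of their peaks, so which of them carry peaks, and how high these are, is given as a description with no test.

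The measurements come from CUT&Tag, in which an antibody directs a transposase to cut the chromatin around its target. Hippocampus of C57BL/6J mice with the genotype CamK-PARIS, left untreated, gave 1 anti-FLAG library and 1 control library with IgG. PARIS is a zinc-finger repressor, and the FLAG tag on it was the target of the antibody. Age, the number of animals behind a library and the promoter that drives the tagged protein are not given in the sources used here, and both libraries carry the same genotype, so no animals without the transgene enter. The IgG library entered only through the authors' peak calling, so no background value can be set beside a peak. With 1 library per antibody there is no replicate error, and intervals below cover only the counting of peaks. Peaks of a gene share its surroundings and are not independent, so these intervals are too narrow. Sequencing depth is unknown. Tissue holds many cell types, and a low peak in all cells cannot be told apart from a high peak in a few.

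Neurotrophins are secreted growth factors that support the survival of neurons and shape their synapses. The product of Bdnf, brain-derived neurotrophic factor, signals through the tyrosine kinase receptor encoded by Ntrk2, and the product of Ntf3 through the one encoded by Ntrk3. Ngfr encodes the low-affinity receptor that binds all neurotrophins. The ligands of the glial cell line-derived neurotrophic factor family bind the co-receptors encoded by Gfra1 and Gfra2, which pass the signal to the tyrosine kinase encoded by Ret. In the hippocampus, Bdnf is known as a gene that neuronal activity switches on from several alternative promoters.

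The sequences below are shown because they are the DNA under the tallest point of the peaks on which the description turns: the gene starts with high peaks, high peaks inside receptor genes and the lone peak of Ret. For Ntrk2 the window is that of its next highest peak and not of the highest, which the authors place in intron 12. Each was read from the reference genome GRCm38.p6 (mm10) on the strand of the gene, 5′ to 3′. Windows were of 200 bp, centred on the region with the highest signal, and were cut back where they met an annotated exon. Capitals mark that region, as the authors' peak list gives it. The first is chr14:70889881-70890080 on the plus strand, just upstream of Gfra2. The next is chr2:109677225-109677413 on the plus strand, downstream of the third Bdnf start. It is followed by chr2:109693421-109693562 on the plus strand, which lies between the fifth and the sixth Bdnf starts and ends just before the sixth. Its label names both starts because its peak holds them, while the window itself holds neither. The receptor gene windows are chr11:95583826-95584025 on the minus strand (Ngfr, intron 1), chr13:59073718-59073917 on the plus strand (Ntrk2, intron 16), chr19:58326261-58326460 on the minus strand (Gfra1, intron 5) and chr7:78601956-78602155 on the minus strand (inside the gene body of Ntrk3). The last is chr6:118222350-118222549 on the minus strand, upstream of Ret.
Gfra2 start: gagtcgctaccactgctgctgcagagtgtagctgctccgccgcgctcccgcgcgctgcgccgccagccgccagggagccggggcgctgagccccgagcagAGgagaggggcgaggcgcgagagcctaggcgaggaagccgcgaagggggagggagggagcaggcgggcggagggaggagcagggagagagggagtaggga
Bdnf, downstream of the third start: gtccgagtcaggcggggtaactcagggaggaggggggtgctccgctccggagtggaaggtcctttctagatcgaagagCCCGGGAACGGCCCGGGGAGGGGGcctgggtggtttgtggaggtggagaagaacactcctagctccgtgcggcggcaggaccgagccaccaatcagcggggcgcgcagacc
Bdnf, at the fifth and the sixth starts: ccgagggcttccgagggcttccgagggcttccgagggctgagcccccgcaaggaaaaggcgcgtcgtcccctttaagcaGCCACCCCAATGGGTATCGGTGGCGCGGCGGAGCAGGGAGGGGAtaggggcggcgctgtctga
Ngfr intron: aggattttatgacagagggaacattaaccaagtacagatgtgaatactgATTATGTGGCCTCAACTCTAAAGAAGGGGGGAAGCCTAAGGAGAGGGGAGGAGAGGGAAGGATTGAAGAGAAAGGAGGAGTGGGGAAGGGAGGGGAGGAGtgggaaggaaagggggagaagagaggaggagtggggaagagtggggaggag
Ntrk2 intron: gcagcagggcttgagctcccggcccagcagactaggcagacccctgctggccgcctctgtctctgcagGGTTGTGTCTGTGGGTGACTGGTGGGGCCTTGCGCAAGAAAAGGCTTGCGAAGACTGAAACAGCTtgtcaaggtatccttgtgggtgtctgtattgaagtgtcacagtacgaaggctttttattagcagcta
Gfra1 intron: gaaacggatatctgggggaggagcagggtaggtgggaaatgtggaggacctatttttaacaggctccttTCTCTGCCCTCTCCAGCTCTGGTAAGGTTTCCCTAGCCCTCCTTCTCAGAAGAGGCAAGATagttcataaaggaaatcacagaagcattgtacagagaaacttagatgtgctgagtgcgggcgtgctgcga
Ntrk3 gene body: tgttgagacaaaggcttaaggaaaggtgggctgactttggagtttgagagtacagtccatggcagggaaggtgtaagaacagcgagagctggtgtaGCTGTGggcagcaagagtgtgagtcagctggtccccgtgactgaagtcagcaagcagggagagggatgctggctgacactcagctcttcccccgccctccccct
Ret upstream: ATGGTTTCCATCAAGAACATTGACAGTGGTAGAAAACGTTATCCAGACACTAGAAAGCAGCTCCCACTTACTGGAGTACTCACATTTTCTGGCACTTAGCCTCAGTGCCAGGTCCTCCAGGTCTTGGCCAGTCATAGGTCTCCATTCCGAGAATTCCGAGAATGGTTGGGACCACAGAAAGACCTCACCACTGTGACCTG

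The windows at the Gfra2 and Bdnf starts are rich in C and G and hold many CG pairs. The Gfra2 window has a GC content of 74.0% with 21 CG pairs, and the Bdnf windows have 67.7% with 15 and 69.0% with 14. The windows inside receptor genes and upstream of Ret have GC contents of 49.0% to 56.5% and 0 to 5 CG pairs. The Ngfr window, in which stretches of A and G follow a mixed beginning, is the one with 0.

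Each peak was described by its height and its shape. The authors' maximum signal is the highest coverage in the peak, in the scale of the track given to the peak caller, which is not given in the sources used here. The shape compares the total signal with the product of maximum and width. Peaks in which this ratio is at least 99% have the same height from end to end and are called flat below. The 133 peaks had a median maximum signal of 102 (95% interval of the median from 93 to 114) and ranged from 8 to 1450, against a median of 101 over all annotated peaks. Of them, 45 (33.8%, Wilson 95% interval 26.3 to 42.2) were not flat, against 36.7% of all peaks. The top 10% of the list by maximum signal, 189 or more, held 15 of 133 (11.3%, 6.95 to 17.8) against 10.1% of all peaks. In height and shape the peaks of these genes were therefore close to the list as a whole.

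Their positions lay farther from those of the list as a whole, with more peaks in introns and fewer at promoters. The region of maximum signal lay within 1 kb of a transcription start site (TSS) in 12 of 133 peaks (9.02%, 5.24 to 15.1), against 15.3% of all peaks. The authors' intron class held 75 peaks (56.4%, 47.9 to 64.5) against 38.0% of all peaks. The promoter class, which reaches to 3 kb, held 20 (15%, 9.95 to 22.1) against 24.6%, and the intergenic class held 30 (22.6%, 16.3 to 30.4) against 31.9%. Of the 133, 96 lay inside the body of their own gene and 37 outside it. Several of the genes are long, and length was not matched in this comparison. Ntrk2 and Ntrk3, the longest, gave 25 and 50 of the 133 peaks, with 21 and 26 in the intron class. Their promoter class held 1 and 5, and each had 1 within 1 kb of a TSS. The promoter class held 5 of 10 peaks of Bdnf, 2 of 14 of Ntf3 and 2 of 8 of Ngfr. It held 3 of 16 of Gfra1, 2 of 9 of Gfra2 and 0 of 1 of Ret. The lower share at promoters thus came largely from Ntrk2 and Ntrk3.

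By gene, all 8 had an assigned peak, where 72.5% of protein-coding genes had one. A peak within 1 kb of a TSS was assigned to 7 of 8, all but Ret, against 42.4% of genes. Such a peak that was not flat was present in 4 of 8 (Bdnf, Ntf3, Ntrk2 and Gfra2), against 28.7% of genes. This share of genes was counted by Ensembl identifier, and by identifier Ntrk3 had such a peak too, which made 5 of 8. A peak lay over an annotated TSS in 5 of 8 (Bdnf, Ntf3, Ntrk2, Gfra2 and Ngfr), against 28.9%. A peak in this top 10% was assigned to 7 of 8, again all but Ret, against 25.2%, and a peak of that height within 1 kb of a TSS to 3 of 8 (Bdnf, Ntrk2 and Gfra2), against 12.7%. A protein-coding gene had a median of 2 peaks, and the longer a gene the more starts and peaks it can hold, and no share here was adjusted for length.

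**Figure D1:**
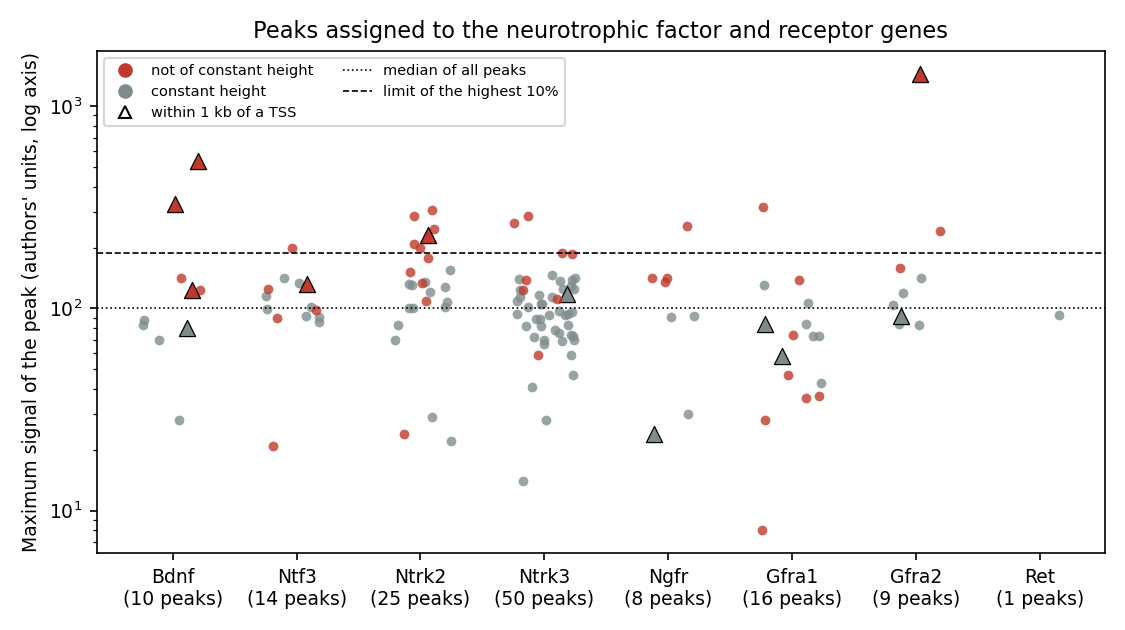
Authors' maximum signal (log axis) of each of the 133 peaks, 1 column of points per gene, in the anti-FLAG library. Triangles are peaks within 1 kb of a TSS, grey marks are flat peaks, the lines are the median of all peaks and the limit of the top 10%, and the Gfra2 point at 1450 stands above all of the rest, of which the next is Bdnf at 535.

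In order of the highest maximum signal within 1 kb of a TSS, Gfra2 came first with 1450, followed by Bdnf with 535, Ntrk2 with 232, Ntf3 with 132, Ntrk3 with 118, Gfra1 with 84 and Ngfr with 24, while Ret had no such peak. By Ensembl identifier Ntrk3 has a peak of 172 within 1 kb of a start and comes before Ntf3. Without replicates it is not known which neighbours in that order differ.

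Among the ligand genes, Bdnf had its highest peaks at alternative starts, and 4 of its 10 peaks lay within 1 kb of a start. Bdnf (chr2:109674700-109727007, plus strand, 52.3 kb) has 11 annotated transcripts with 9 distinct starts, and 3 of these starts lay in a peak. The 10 peaks had, from upstream to downstream, maximum signals of 141, 70, 88, 83, 123, 535, 28, 80, 328 and 124. The peaks of 535 and 328 are the high ones, and the other 8 lie in the range of ordinary peaks of the list.

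The Bdnf peak of 535 (chr2:109676823-109678338, 1516 bp) held the third start from the 5′ end and ranked 224 of all peaks by maximum signal. Its region of maximum signal lay 271 bp downstream of that start, in the window printed above. The second start lay 926 bp outside the peak, and the peak of 123 lay 418 bp upstream of the first start. The first start thus had a peak beside it and none over it. The peak beside it lay in the body of another gene, Gm45346.

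The peak of 328 (chr2:109692628-109693767, 1140 bp) held the fifth and the sixth starts and ranked 1656. The fourth start lay 192 bp outside it on one side, and the seventh and the eighth lay 642 and 702 bp outside it on the other. The ninth and last start, 34683 bp from the first, had its nearest peak at 1629 bp, with a maximum signal of 124. So the signal stood at the clustered middle starts and at the third, with no peak over the last. By its tallest peak, Bdnf ranked 196 among genes, and by its tallest peak within 1 kb of a TSS it ranked 110.

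**Figure D2:**
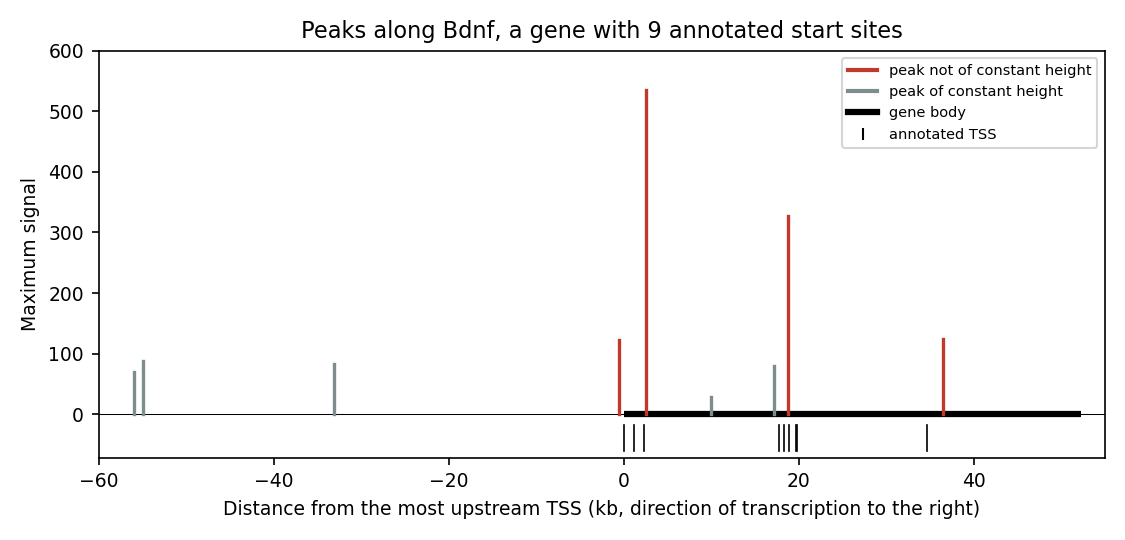
Peaks along Bdnf, drawn as their maximum signal (vertical axis) against the distance from the first annotated start in kb (horizontal axis), with the annotated starts marked. The peaks of 535 and 328 stand over annotated starts, the start farthest downstream has no peak over it, and the peak 175 kb upstream lies outside the plot.

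Ntf3, the other neurotrophin gene, had a broad peak at its most downstream start and its highest peak within its intron. In Ntf3 (chr6:126101412-126166910, minus strand, 65.5 kb), 14 peaks were assigned, with maximum signals from 21 to 198 and a median of 100. A peak of 2126 bp (chr6:126162865-126164990) with a maximum signal of 132 held the most downstream of its 3 starts, and the other 2 lay 1.73 and 1.92 kb outside it. The start lay near the edge of this peak, whose region of maximum signal was 944 bp downstream of it. The highest maximum signal of Ntf3, 198, was in intron 1 (chr6:126143428-126143655), 21.4 kb from the assigned start. Of the 14, 10 lay in the gene body, a density of 153 per Mb against 37.0 per Mb on chromosome 6, and 2 of the others lay in the neighbouring gene Ano2.

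Of the receptor tyrosine kinase genes, Ntrk2 had a peak at its start and higher ones deep in introns. Ntrk2 (chr13:58806569-59133970, plus strand, 327 kb) had 25 peaks, all of them inside its body, with maximum signals from 22 to 308 and a median of 131. The peak at the start (chr13:58806267-58807922, 1656 bp) had a maximum signal of 232 and held 5 of the 9 annotated starts. Of the remaining starts, 2 lay 359 and 769 bp outside this peak, and 2 lay 20.9 and 5.25 kb from the nearest peak. So the upstream starts were covered and the internal ones were not.

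Of the 25 peaks of Ntrk2, 6 were in the top 10% by maximum signal, and 1 of these 6 was at the start. Intron 12 held 3 of them: 308 (chr13:58885295-58885979), 208 and 248. Intron 16 held 1 of 288 (chr13:59073577-59074160), whose window is printed above and where the gene 4930415C11Rik is annotated too. The last, 199 (chr13:58935999-58936292), was classed by the authors as 3′ untranslated region, in a gene whose shorter forms end before the kinase domain.

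The assignment of peaks to Ntrk3 depends on the name used. Ntrk3 (chr7:78175959-78738012, minus strand, 562 kb) had 50 peaks with maximum signals from 14 to 286 and a median of 96.5, and 42 of them were flat. None of its 19 annotated starts lay in a peak. The single peak within 1 kb of a start was flat, with a maximum signal of 118 at 622 bp from the assigned start. The highest maximum signal, 286 (chr7:77856310-77856499), lay 406 kb from the assigned start, beyond the 3′ end of the gene, where 15 of the 50 peaks were. A peak of 1408 bp (chr7:78575453-78576860) reached 266 at 1.78 kb from a start.

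The upstream part of the gene body holds starts that the authors' table lists under the symbol E430016F16Rik, with the same Ensembl identifier as Ntrk3. Under that symbol 18 more peaks lay in the body, of which 9 were not flat and 4 were in the top 10% by maximum signal. The highest of them, 512 (chr7:78601378-78602410), ranked 276 of all peaks and is the Ntrk3 window printed above. One of 172 lay 35 bp from a start. By the symbol alone Ntrk3 had no peak near a start that was not flat, and with the Ensembl identifier it did, so that 5 in place of 4 of the 8 genes had one.

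**Figure D3:**
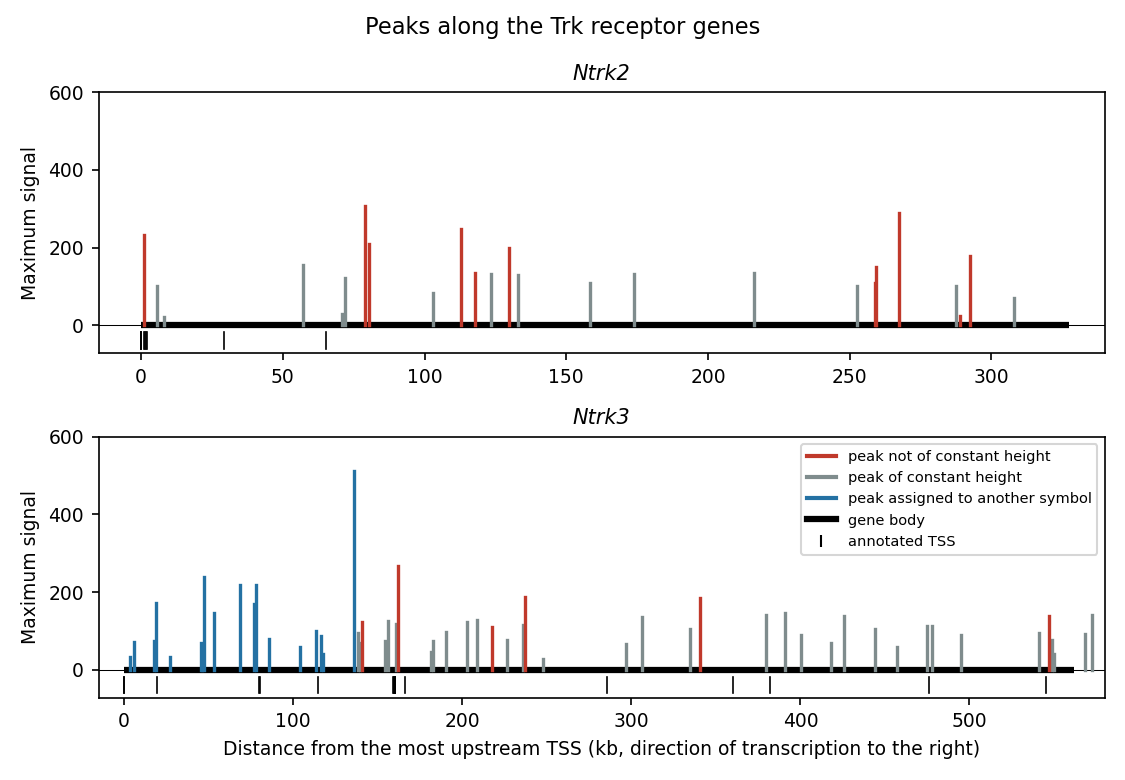
Maximum signal of peaks along Ntrk2 (upper panel) and Ntrk3 (lower panel), against the distance from the first annotated start in kb, with the annotated starts marked. In Ntrk3, the peaks under E430016F16Rik have their own colour and include the highest one, 512, while peaks far beyond the 3′ end lie outside the plot.

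Ngfr, the gene of the low-affinity neurotrophin receptor, had a flat low peak at its start and its highest peak in intron 1. Ngfr (chr11:95568818-95587735, minus strand, 18.9 kb) has 1 annotated start, which lay in a flat peak (chr11:95587183-95587853) with a maximum signal of 24. Its 8 peaks had, in order along the chromosome, maximum signals of 30, 141, 141, 256, 92, 24, 91 and 135. The highest, 256 (chr11:95583459-95584374), lay 3.76 kb from the start in intron 1, and 58.0% of its window is masked as repeat. The start of this gene thus carried the lowest of its signals.

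Among the co-receptor genes, Gfra2 had the highest peak of the 8 genes. Gfra2 (chr14:70890120-70979838, plus strand, 89.7 kb) had a maximum signal of 1450 in a peak of 1659 bp (chr14:70889012-70890670), which held 2 of its 3 annotated starts and ranked 3 of all peaks. The mean signal over this peak was 320, so the tip was narrow: the region of maximum signal was 2 bp long and lay 138 bp upstream of the first start. Of the window printed above, 30.5% is masked as repeat. The other 8 peaks had maximum signals of 92, 158, 242, 84, 104, 119, 141 and 83, and 4 of these lay 124 to 151 kb from the assigned start, downstream of the gene. Those of 158 and 242 lay inside the gene, in intron 3. The third start, 51766 bp downstream, had its nearest peak 17.7 kb away.

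By its tallest peak, Gfra2 ranked 3 among genes, and it ranked 2 by the tallest peak within 1 kb of a TSS. Wbp11 and Slc8a2 are the genes above it in the first ranking, and only 7 genes in all had a peak over 1000. Whether the height of this peak also appears in other animals or with IgG was not tested.

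Gfra1 differed from Gfra2 in that its highest peak lay inside the gene and not at a start. Gfra1 (chr19:58235604-58455909, minus strand, 220 kb) has 9 annotated starts, and none lay in a peak. The peaks within 1 kb of a start were flat, with maximum signals of 58 and 84, the first 46 bp upstream of the first start. Its 16 peaks had a median of 73, the lowest among the genes with more than 1 peak, and the highest of 317 (chr19:58326236-58326800) was in intron 5, 128 kb from the assigned start. Of the 16, 13 lay in the gene body, at 59.0 per Mb against 46.1 per Mb on chromosome 19.

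Ret, which encodes the kinase that both co-receptors use, had 1 peak in all. It was flat, had a maximum signal of 93 and lay 24.5 kb upstream of the start (chr6:118222209-118222690). The body of Ret (chr6:118151745-118197718, minus strand, 46.0 kb) held 1 more peak, flat with a maximum signal of 88 and in intron 17, which the authors' table lists under Csgalnact2. Between these peaks lay 57.6 kb with none around the starts of Ret, where peaks on chromosome 6 had a mean spacing of 27.0 kb. A gap picked because it holds a given start is on average longer than the mean spacing. These values therefore do not show that the region is unusually empty. Ret and its co-receptor Gfra2 were thus at the low and the high end of the 8 genes.

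**Figure D4:**
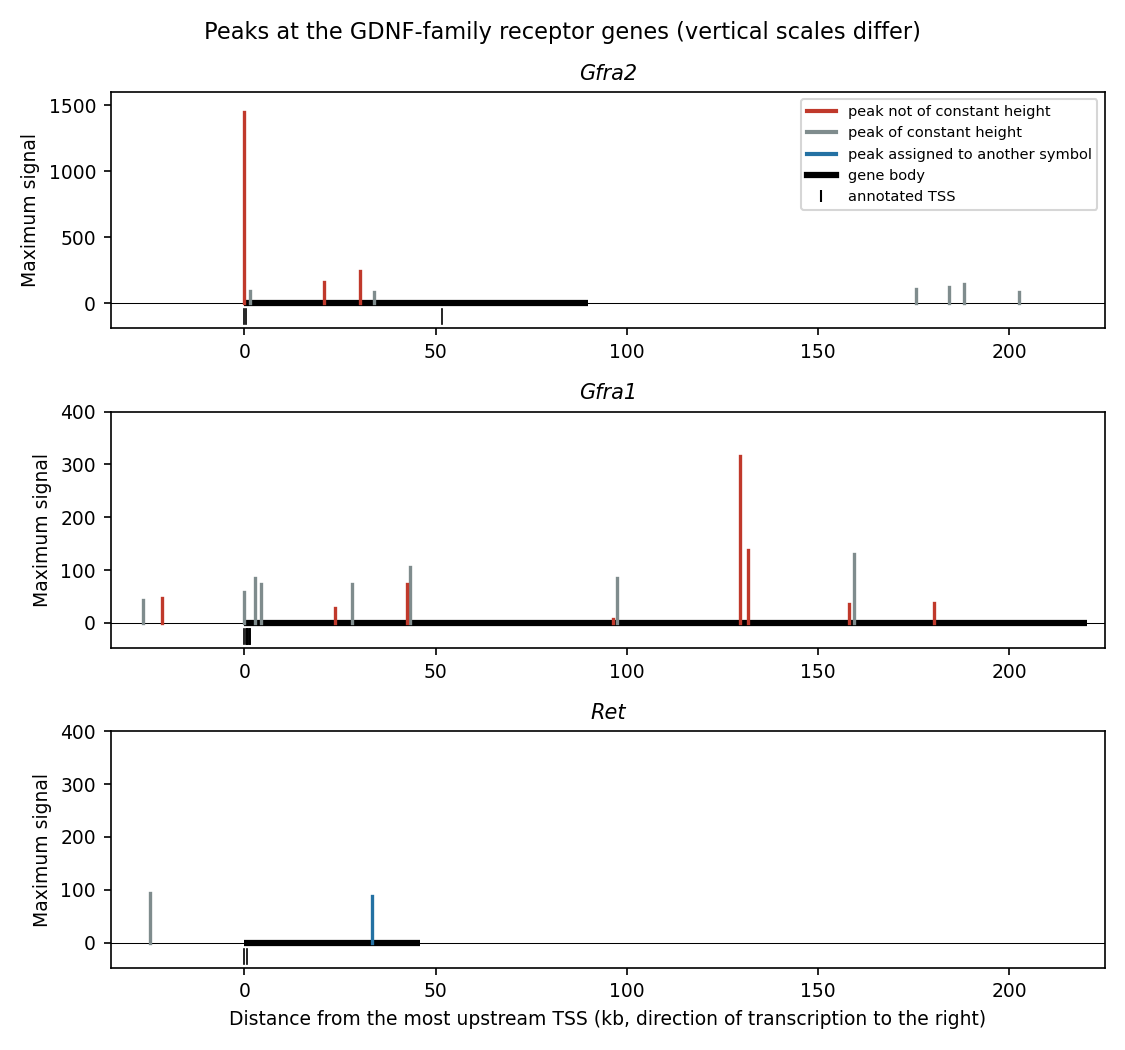
Maximum signal of peaks along Gfra1, Gfra2 and Ret against the distance from the first annotated start in kb, 1 panel per gene, with a larger vertical scale for Gfra2. The Gfra2 peak of 1450 stands at its first starts, the highest Gfra1 peak, 317, lies inside the gene, and Ret has no peak around its starts.

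The bodies of 7 of the 8 genes held more peaks per Mb than their chromosomes, as did those of 46.7% of protein-coding genes. Nothing is read from this count, since the genes were chosen by their peaks. The ratio was 4.13 in Ntf3, 3.74 in Ngfr, 2.24 in Bdnf, 2.16 in Ntrk2, 2.12 in Ntrk3 (all symbols counted), 1.32 in Gfra2 and 1.28 in Gfra1. It was 0.588 in Ret, from 1 peak. The chromosome value counts the regions between genes too.

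The DNA under the peaks of these genes had a mean GC content of 48.8 ± 7.28% (SD over 133 windows of 200 bp) against 49.0 ± 8.91% over all peaks. The 6 peaks within 1 kb of a TSS that were not flat had 63.8 ± 6.02% (SD), a median ratio of observed to expected CG pairs of 0.751, a median width of 1586 bp and a median maximum signal of 280. All 8484 such peaks had 60.7 ± 10.1%, 0.602, 663 bp and 160. The 121 peaks farther away had 47.9 ± 6.39% and 0.181, against 47.5 ± 7.62% and 0.172 over all such peaks. At least 50% of the window was masked as repeat in 12 of 133 (9.02%, 5.24 to 15.1), against 15.6% of all peaks.

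Motifs were searched on both strands of these windows, and a window with several matches was counted once. No motif holds another. The insulin response sequence, TATTTTT or TATTTTG, which has been reported for PARIS, occurred in 15 of 133 windows (11.3%, 6.95 to 17.8) against 9.97% of all. By gene it was in 7 of 50 windows of Ntrk3, 3 of 10 of Bdnf, 2 of 9 of Gfra2, 1 of 14 of Ntf3, 1 of 25 of Ntrk2, 1 of 16 of Gfra1 and in none of the 8 of Ngfr or the 1 of Ret. Neither the Gfra2 nor either high Bdnf window held it, and the printed Gfra1 window did, at position 51 from its 5′ end. A match is a string of letters and not a bound site.

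The other motifs were close to their shares over all windows too. The AP-1 site, TGANTCA, was in 15 (11.3%) against 9.40%, the GC box, GGGCGG, in 9 (6.77%) against 8.46%, and the E-box, CACGTG, in 3 (2.26%) against 3.11%. The cAMP response element, TGACGTCA, was in 0 of 133 windows, which allows a share of up to 2.26% (3 counts of 133), and in 0.300% of all. Of the printed windows, 3 hold a GC box on either strand, at positions 165, 127 and 188. They are those of Gfra2, of Bdnf just before the sixth start and of the Ntrk3 gene body. Of the 6 peaks near a start that were not flat, 3 held a GC box, against 39.2% of such peaks.

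The RefSeq promoter table of GRCm38.p6, which spans 250 bases before to 50 after a start, matched 5 of the 8 genes in 12 entries. The insulin response sequence was in 3 of these 12, against 11.3% of 32851 promoters, the GC box in 6 against 35.7%, the AP-1 site in 1 against 7.81%, the E-box in 1 against 7.15%, and the cAMP response element in 0 against 1.79%. Of the 12 entries, 7 were of Bdnf, and Ntrk3, Gfra2 and Ret had none. With 12 entries, most of them of 1 gene, these counts separate little.

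A list of 38 further genes of neurotrophic signalling gave the context. All 38 had a peak, against 72.5% of protein-coding genes. Of them, 24 had one within 1 kb of a TSS, against 42.4%, and 18 had such a peak that was not flat, against 28.7%. These shares were not adjusted for gene length either, and the list was chosen with earlier results of these data known. By role, genes with a peak near a start were 3 of 8 ligand genes, 12 of 18 genes of receptors and co-receptors, and 9 of 12 adaptor genes. Among ligands, Ntf5 had a maximum signal of 141 near its start, Gdf15 140 and Gdnf 47, while Nrtn, Artn, Pspn and Cntf had peaks farther away and none near.

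The highest maximum signals within 1 kb of a TSS in this list were 418 in Gas1, 399 in Sorcs3 and 387 in Sdc3, which encode a co-receptor-like protein that binds Ret, a sortilin-family receptor and a cell-surface proteoglycan. They lay at chr13:60177225-60178058, chr19:48204420-48206186 and chr4:130812251-130814413. A peak in the top 10% by maximum signal near a start was present in 0 of 8 ligand genes, 4 of 18 genes of receptors and co-receptors and 2 of 12 adaptor genes, against 12.7% of protein-coding genes, and these counts are too small to separate the roles.

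**Figure D5:**
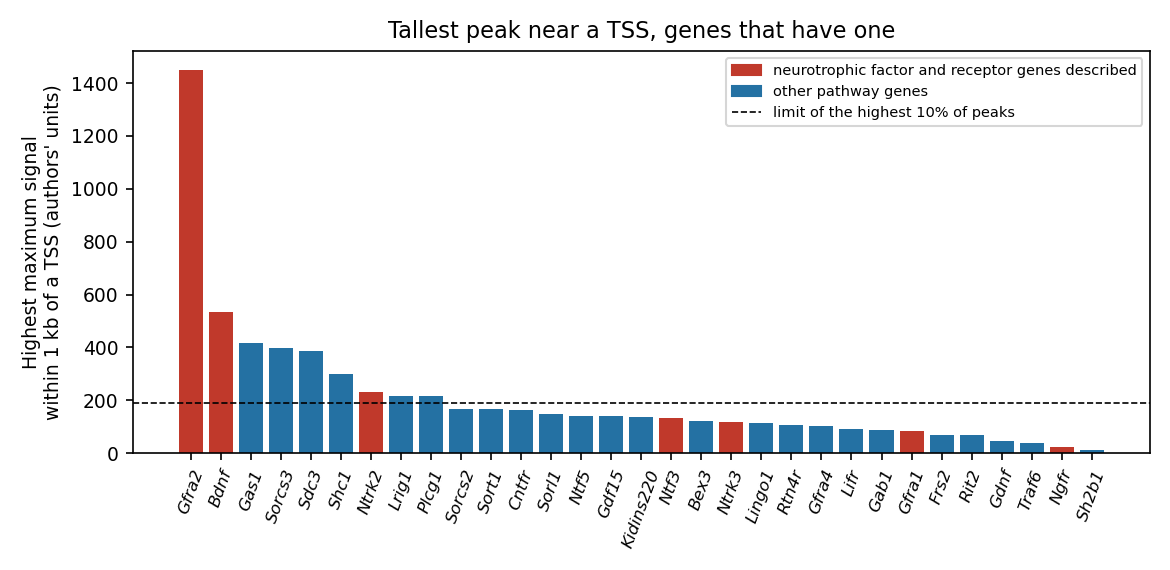
Highest maximum signal within 1 kb of a TSS (linear axis from 0) for those of the 8 genes (red) and of the 38 further genes (blue) that have such a peak, with the limit of the top 10% of peaks at 189 as a dashed line. Gfra2 at 1450 stands above Bdnf at 535, and the highest further gene is Gas1 at 418.

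As the library measures chromatin, cell type markers could be checked only by their starts. A peak within 1 kb of a TSS was assigned to 4 of 5 markers of hippocampal excitatory neurons, 3 of 4 of interneurons, 1 of 5 of oligodendrocytes, 1 of 4 of astrocytes and 2 of 4 of microglia, against 42.4% of genes. In the same order, 3, 2, 1, 0 and 0 of them had such a peak that was not flat, against 28.7%. In which cell types the peaks of the 8 genes lie was not tested.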

How the data were processed

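Per the labels' protocols, the authors mapped paired-end reads to mm10 (Bowtie2), filtered out duplicates and reads of low quality, and ran SEACR with IgG as control; versions, settings and the track's scale are not given in the sources used here. The deposited peak list holds the total and maximum signal of each peak of the anti-FLAG library, and the authors' annotation table holds the assigned gene and the distance to its TSS. The annotation tool is not given in the sources used here.

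Peaks were taken by symbol and set against GENCODE M21 and GRCm38.p6 (RefSeq). The members, lists, shape measure and motifs were chosen with earlier results of these data known. Named peaks were, for each gene, the one nearest a TSS, the highest, and those over an annotated TSS; of the further list, counts by role and the 3 highest near a TSS; other peaks were named after their values were seen. With 1 library no test was made. Shares carry Wilson 95% intervals, and a share of 0 the limit of 3 counts. Python 3.11.15, pandas 2.3.3, numpy 2.4.6 and scipy 1.17.1 were used, and the scripts were tested on simulated data. Alternatives were stricter subsets of peaks, other TSS distances, overlaps and windows, and other assignments. Values of single genes of the further list that are withheld are not reported here.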

Additional observations from a re-analysis of the deposited data

How the results depend on the processing

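Of 30 alternatives to 7 results, 15 moved the value, most by keeping fewer peaks. A count within a factor of 1.5 was taken as unmoved, so smaller changes are among the rest. There, genes with a peak near a TSS fell from 7 to 5 with a limit of 500 bp. Peaks at least 200 bp wide were 98 of the 133. In the top 10% by maximum signal, the 133 peaks became 15, genes with a peak within 1 kb of a TSS 3, the promoter share 33.3%, the median maximum signal 266, the mean GC content 54.7%, the share with the insulin response sequence 6.67% and the further genes with a near peak 6. Without flat peaks the values were 45 peaks, 4 genes, a median of 141 and a GC content of 52.8%. With a maximum signal above the median 68 peaks were left, and 14 were in the top 10% by total signal. Total signal divided by width had a median of 91 in place of 102, and windows of 400 bp held the insulin response sequence in 18.8%, as longer windows hold more strings. Assignment by Ensembl identifier, chosen after seeing the data, gave 152 peaks and 7 genes near a TSS.

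No paired analysis was possible because each antibody has 1 library. No IgG value was analysed here, depth is unknown, and variation between animals cannot be given.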
